A study of Mus musculus with 8 samples.

Results

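Mast cell genes were followed in RNA pulled down with GFP-tagged ribosomes from mouse skin before and after wounding. The 8 genes were taken by symbol from the count table of 53700 genes: the stem cell factor receptor Kit, the histamine-forming enzyme Hdc, the granule proteases Cpa3, Cma1, Mcpt4 and Tpsb2, and Fcer1a and Ms4a2, the alpha and beta chains of the high-affinity IgE receptor. Each symbol matched 1 row. Of the 8 genes, 6 passed the filter on low counts. Fcer1a and Ms4a2 did not, and both stayed at 10 counts or fewer in every library. Kit and Hdc passed the filter only with the counts of wounded libraries, so their entry into the tests depended on being high there.

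The groups were uninjured skin (n = 3), skin 3 days after wounding (n = 2) and skin 7 days after wounding (n = 3), with days read from the abbreviations in the sample titles. Mice of all groups had the genotype AdipoqCreER;R26-NuTRAP and were given tamoxifen. Tamoxifen switches on a recombinase driven by the adiponectin gene, and recombined cells then carry GFP-tagged ribosomes. Wounded mice, per the labels' protocols, were 7 to 9 weeks old and had 4 full-thickness wounds made with a 5 mm punch, and each library was made from 20 ng of RNA. Nothing in the labels says whether libraries of a group came from separate animals, so p-values measure the spread between these libraries, which may be technical.

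Mast cells are resident immune cells of the dermis that also lie in the fat of the skin. They need KIT and its ligand for survival, carry IgE on the receptor FcεRI, and store histamine and proteases bound to the proteoglycan serglycin in granules that are released on activation. In mouse connective tissue mast cells the granules hold the carboxypeptidase CPA3, the chymases CMA1 (mMCP-5) and MCPT4 and the tryptase TPSB2 (mMCP-6).

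The pull-down was labelled as adipocyte RNA, and adipocyte genes were abundant in it. Adipoq, the hormone adiponectin, was at 1803 to 5404 CPM (counts scaled to library size after TMM normalisation) over the 8 libraries, whereas none of the mast cell genes exceeded 30.1 CPM. It was at 4908 to 5404 CPM in uninjured libraries and at 1803, 2789 and 5177 CPM in day 7 replicates 1, 2 and 3. Day 7 replicate 3 thus lay within the uninjured range of Adipoq. Marker genes of other cell types were detected too, and some libraries stood apart in them. Whether their RNA came from tagged cells or was carried over from untagged ones was not tested. The summed level of 15 luminal, that is glandular, epithelial markers was 22.7 to 41.0 CPM in uninjured libraries, 1749 and 44.5 CPM in day 3 replicates 1 and 2, and 635 to 1347 CPM at day 7. The summed level of 10 macrophage markers was 121 to 256 CPM in uninjured libraries, 250.1 and 1041 CPM in day 3 replicates 1 and 2, and 444 to 1068 CPM at day 7, lowest in replicate 3. Libraries held 5308959 to 17751689 counts, the fewest in day 3 replicate 1. The names of the count columns begin with a number that is shared within each group and differs between groups, and whatever it stands for cannot be told apart from the group.

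Promoter sequence is shown as a description of the genes. Over the 8 libraries, Cpa3, Cma1 and Mcpt4 had Pearson correlations of log2 CPM of 0.688 to 0.896 with each other. Those of Kit with these 3 genes were 0.106 to 0.414. Many other genes were closer, as Cpa3 ranked 1557 among 10504 candidate genes by correlation with Mcpt4. Shared regulation was not tested. The 250 bases before the annotated start are given 5′ to 3′ on the gene's strand (RefSeq, GRCm38.p6), a table in which 7 of the 8 genes were found and Tpsb2 was not. Capitals mark GATA or its reverse complement TATC, the core bound by GATA factors, and TATAAA on the gene's strand. Mcpt1 is added as another gene of the chymase cluster.
Cpa3 promoter, chr3:20242182-20242431, minus strand: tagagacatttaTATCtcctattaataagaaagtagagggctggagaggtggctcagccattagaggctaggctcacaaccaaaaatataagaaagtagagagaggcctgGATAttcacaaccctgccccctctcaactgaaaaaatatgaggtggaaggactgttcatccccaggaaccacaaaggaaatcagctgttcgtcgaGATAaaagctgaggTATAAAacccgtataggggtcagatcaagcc
Cma1 promoter, chr14:55944676-55944925, minus strand: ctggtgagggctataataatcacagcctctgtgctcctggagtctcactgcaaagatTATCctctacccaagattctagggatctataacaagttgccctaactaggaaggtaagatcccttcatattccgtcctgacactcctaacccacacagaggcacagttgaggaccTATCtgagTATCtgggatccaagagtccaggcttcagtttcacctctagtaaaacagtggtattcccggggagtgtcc
Mcpt4 promoter, chr14:56062311-56062560, minus strand: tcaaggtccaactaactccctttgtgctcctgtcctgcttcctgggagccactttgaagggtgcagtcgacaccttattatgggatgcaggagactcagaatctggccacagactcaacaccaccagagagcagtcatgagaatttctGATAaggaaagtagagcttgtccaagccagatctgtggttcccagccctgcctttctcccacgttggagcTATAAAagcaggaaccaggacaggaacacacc
Mcpt1 promoter, chr14:56017714-56017963, plus strand: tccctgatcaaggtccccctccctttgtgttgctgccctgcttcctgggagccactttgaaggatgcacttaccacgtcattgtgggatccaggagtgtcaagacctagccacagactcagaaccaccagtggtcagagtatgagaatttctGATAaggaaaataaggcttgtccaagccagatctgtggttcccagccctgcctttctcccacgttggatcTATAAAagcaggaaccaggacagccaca
Hdc promoter, chr2:126618679-126618928, minus strand: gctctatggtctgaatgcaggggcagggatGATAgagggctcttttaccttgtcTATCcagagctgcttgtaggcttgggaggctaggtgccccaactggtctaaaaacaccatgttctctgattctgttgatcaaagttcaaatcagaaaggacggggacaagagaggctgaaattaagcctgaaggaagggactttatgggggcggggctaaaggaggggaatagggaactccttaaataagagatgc
Kit promoter, chr5:75574737-75574986, plus strand: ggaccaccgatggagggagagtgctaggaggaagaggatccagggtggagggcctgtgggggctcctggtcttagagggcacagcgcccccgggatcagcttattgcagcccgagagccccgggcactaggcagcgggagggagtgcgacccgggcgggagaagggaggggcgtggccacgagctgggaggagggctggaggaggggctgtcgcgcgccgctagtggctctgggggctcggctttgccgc
The window held 3 matches to GATA in Cpa3 and in Cma1, 1 in Mcpt4, 2 in Hdc and 0 in Kit. Over 32817 promoter windows of this length, 53.6% had at least 1 match and 24.2% had 2 or more. TATAAA occurred in the windows of Cpa3, Mcpt4 and Mcpt1, 31, 32 and 28 bases before the start, and in 7.6% of all windows. CATGTG, an E-box of the kind bound by the mast cell factor MITF, was searched on both strands and was found in none of the 6 sequences shown but once in that of Fcer1a, against 12.3% of all windows. The windows of Fcer1a and Ms4a2, not printed because both genes were near 0 counts, held 2 and 5 matches to GATA, and that of Fcer1a 1 TATAAA. The windows of Mcpt4 and Mcpt1 were 81.0% identical over 258 aligned columns, those of Mcpt4 and Cma1 49.3% over 286. A match to these letters describes the sequence and is not evidence of binding. Mcpt4 had 7 to 128 counts per library, whereas Mcpt1 had 1 count in the 8 libraries together.

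In the deposited table, Kit (ENSMUSG00000005672.13) spans chromosome 5 from 75735576 to 75817382 on the plus strand and Hdc (ENSMUSG00000027360.6) chromosome 2 from 126435587 to 126461219 on the minus strand. Cma1 (56178908 to 56182132) and Mcpt4 (56297086 to 56299770) lie in the chymase cluster on chromosome 14. Tpsb2 lies on chromosome 17 from 25585279 to 25588072 and Cpa3 on chromosome 3 from 20269784 to 20296345. The start positions of 0 of the 8 genes equal those of the GRCm38 annotation, so these coordinates belong to another build or annotation than the promoter windows. Counts were summed over the exons of each gene. Stretches of 50 bases shared with another gene made up 5.38% of Cma1 (with Gm48934) and 5.48% of Mcpt4 (with Cma2, and Mcpt9 in part), 2.69% of Ms4a2 (with Ms4a4b) and 0% of the other 5 genes. Gm48934 and Cma2 had 0 to 6 counts in any library.

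At day 7 against uninjured skin, Kit and Hdc rose, and the 4 granule proteases had positive fold changes that did not pass the test. All 3 day 7 libraries lay above all 3 uninjured ones for Kit, Hdc, Cpa3 and Cma1, for Cma1 by a small margin, and Mcpt4 and Tpsb2 overlapped. Thus 2 of the 6 tested genes rose and 0 fell, where 5.9% of the 18656 genes tested rose and 1.77% fell (7.67% in all, edgeR, adjusted p under 0.05). At an unadjusted p under 0.05, 3 of the 6 were higher, against 17.2% of all genes (26.7% in either direction). DESeq2 called 2 of the 6 higher, Kit and Hdc, against 8.6% of its genes higher and 2.97% lower. All 6 fold changes were positive, against 52.1% of all genes tested. For 4 of the 6 genes the groups did not overlap, with day 7 higher, as was the case for 16.7% of all genes tested.

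Kit, the receptor tyrosine kinase, was at 0.976, 1.04 and 2.31 CPM across the uninjured libraries, 29.0 and 3.96 CPM on day 3, and 30.1, 26.6 and 13.3 CPM at day 7. Day 3 replicate 2 was close to the uninjured libraries and day 3 replicate 1 among the day 7 ones. Kit rose 16.7-fold at day 7 (log2 fold change 4.06 ± 0.70 SE, edgeR adjusted p = 0.00958). This call was lost without uninjured replicate 1 (log2 3.85, edgeR adjusted p = 0.0525). At day 3 against uninjured, the log2 fold change was 3.53 ± 0.74, and Kit did not pass (edgeR adjusted p = 0.161) although both day 3 libraries were above all 3 uninjured ones.

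Hdc, which makes histamine from histidine, was at 0.122, 0.612 and 1.16 CPM across the uninjured libraries, 3.29 and 5.56 CPM on day 3, and 4.64, 9.14 and 2.52 CPM at day 7. The uninjured libraries were the 3 lowest of the 8, with 1, 10 and 8 counts. Hdc rose 8.70-fold at day 7 (log2 3.12 ± 0.71, edgeR adjusted p = 0.0267). Without any 1 of uninjured replicates 1 and 2 or day 7 replicates 1 and 2, it did not pass (log2 2.53 to 3.21, edgeR adjusted p = 0.0667 to 0.118). At day 3 it had a log2 fold change of 2.84 ± 0.76 (edgeR adjusted p = 0.201).

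**Figure D1:**
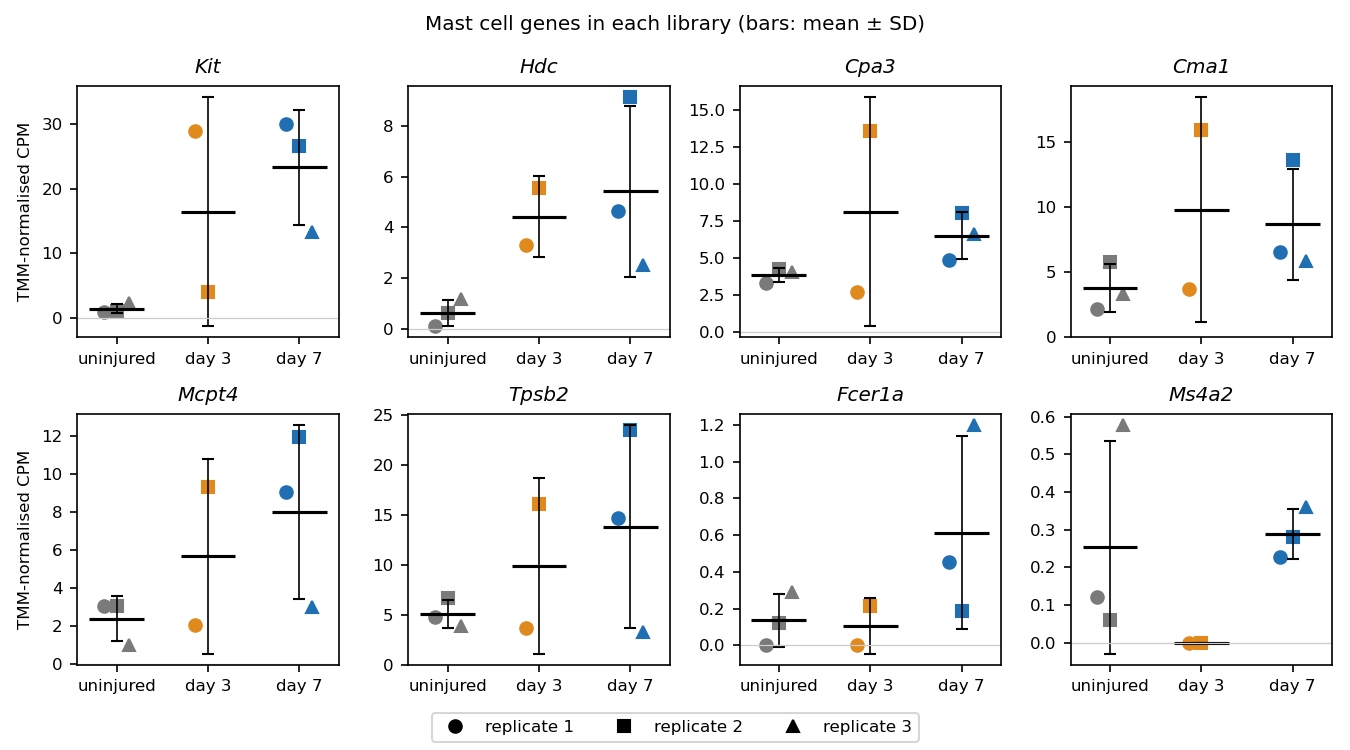
TMM-normalised CPM of the 8 mast cell genes in each library (points, shaped by replicate), with the mean and SD of each group. Kit and Hdc are lowest in all 3 uninjured libraries, and the 4 proteases are high in day 3 replicate 2 and low in day 3 replicate 1. Fcer1a and Ms4a2 are at 1.20 CPM or less throughout.

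Among the proteases, Cpa3, the mast cell carboxypeptidase, varied least in uninjured skin. It was at 3.29, 4.23 and 4.04 CPM in uninjured libraries, 2.67 and 13.6 CPM at day 3, and 4.87, 8.02 and 6.59 CPM at day 7 (day 7 against uninjured log2 0.75 ± 0.52, edgeR adjusted p = 0.369). Cma1, the chymase mMCP-5, was at 2.20, 5.82 and 3.32 CPM in uninjured libraries, 3.70 and 15.9 CPM at day 3, and 6.57, 13.6 and 5.87 CPM at day 7 (log2 1.18 ± 0.58, edgeR adjusted p = 0.215). Its lowest day 7 library exceeded the highest uninjured one by less than the spread within either group.

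Mcpt4, a chymase of connective tissue mast cells, was at 3.05, 3.06 and 1.01 CPM in uninjured libraries, 2.06 and 9.30 CPM at day 3, and 9.06, 11.9 and 2.99 CPM at day 7 (log2 1.72 ± 0.66, edgeR adjusted p = 0.129). The tryptase Tpsb2 was at 4.76, 6.68 and 3.90 CPM in uninjured libraries, 3.70 and 16.1 CPM at day 3, and 14.7, 23.5 and 3.23 CPM at day 7 (log2 1.42 ± 0.66, edgeR adjusted p = 0.195). For both genes day 7 replicates 1 and 2 were above, and replicate 3 within or below, the uninjured range. Without day 7 replicate 3, Mcpt4 and Tpsb2 passed (log2 2.11 and 1.89, edgeR adjusted p = 0.0391 and 0.0328), so that 4 of 6 genes were called. In that fit 2616 of 18469 genes were called higher and 1439 lower, against 1101 and 330 of 18656 with all libraries. In edgeR without the low-count filter, Mcpt4 and Tpsb2 passed as well (edgeR adjusted p = 0.0111 and 0.0108), 4 of 8 genes against 6.11% of 38669 genes called higher in that fit.

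The IgE receptor chains were near the detection limit. Fcer1a had 0, 2 and 2 counts in uninjured libraries, 0 and 2 counts at day 3, and 4, 2 and 10 counts at day 7. Ms4a2 had 1, 1 and 4 counts in uninjured libraries, 0 and 0 counts at day 3, and 2, 3 and 3 counts at day 7. A count of 0 allows up to 3 counts, which is 0.321 to 0.617 CPM in the day 3 libraries (counting error only). No difference in either gene was detectable at this depth. The related tryptase Tpsab1 and basophil protease Mcpt8 had at most 10 and 4 counts in any library.

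**Figure D2:**
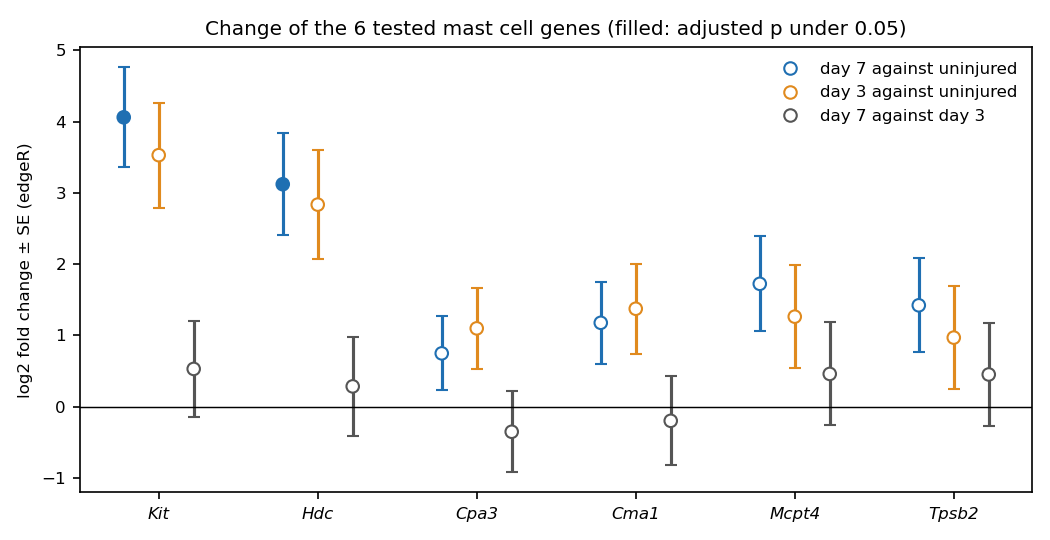
Log2 fold changes with their standard errors from edgeR for the 6 tested mast cell genes in 3 comparisons. Filled points, Kit and Hdc at day 7 against uninjured, have an adjusted p under 0.05, and every other point is open.

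At day 3 against uninjured, 0 of the 6 tested genes were called by edgeR, where 0.0107% of genes rose (2 of 18656) and 0 fell. With an unadjusted p under 0.05, Kit and Hdc were higher (2 of 6, against 7.57% of all genes tested). DESeq2 called both of them higher (adjusted p = 0.000121 and 0.0192), with 1.9% of its 17345 genes higher and 0.588% lower. Without the low-count filter edgeR called both too, against 1.8% of genes. All 6 fold changes were positive, against 51.1% of all genes tested. The groups did not overlap for 2 of the 6, Kit and Hdc, against 16.9% of all genes with every day 3 library higher. The 4 proteases had log2 fold changes of 0.97 to 1.37 that rested on replicate 2. Without it they were -0.55 for Cpa3, -0.073 for Cma1, -0.25 for Mcpt4 and -0.50 for Tpsb2, while Kit had a log2 fold change of 4.36. Without replicate 1, the log2 fold change of Kit was 1.5. Each of these fits left 1 library at day 3, so the spread within day 3 is not in them.

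At day 7 against day 3, 0 of the 6 genes passed in edgeR, 0 at an unadjusted p under 0.05 and 0 in DESeq2. In this comparison edgeR called 0.0643% of genes higher and 0.0214% lower (0.0858% in all, 12 and 4 genes, or 15 and 11 with upper-quartile scaling). The share of all genes higher was 6.37% at an unadjusted p under 0.05, 0.813% in DESeq2 (0.476% lower) and 0.954% in edgeR without the low-count filter. Fold changes were positive for 4 of the 6, against 55.4% of all genes tested. The log2 fold changes were 0.53 ± 0.67 for Kit and 0.29 ± 0.70 for Hdc, and between -0.35 and 0.46 for the proteases, with standard errors of 0.57 to 0.73. The comparisons with uninjured skin share the uninjured libraries and are not independent.

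Kit and the proteases were both high in day 7 replicates 1 and 2 and opposed in the day 3 libraries. The summed level of the 4 proteases was 13.3, 19.8 and 12.3 CPM in uninjured libraries, 12.1 and 55.0 CPM at day 3, and 35.2, 57.1 and 18.7 CPM at day 7. Day 3 replicate 1 had the lowest protease sum of the 8 libraries and the second highest Kit level, and day 3 replicate 2 had the second highest protease sum and the lower Kit level of its group. Of the counts of Kit and the 4 proteases together, Kit made up 70.5% in day 3 replicate 1 (95% exact binomial interval 63.7% to 76.7%, 200 counts) and 6.71% in replicate 2 (4.77% to 9.14%, 551 counts). In day 7 replicates 1, 2 and 3 the share was 46.1% (42.0% to 50.3%), 31.8% (28.7% to 34.9%) and 41.6% (35.6% to 47.7%), and in uninjured replicates 6.84% (3.00% to 13.0%), 5.00% (2.94% to 7.88%) and 15.8% (9.34% to 24.4%). The day 7 and uninjured shares did not overlap. These shares were chosen after the values were seen and were not tested, and the intervals cover counting error only.

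The summed markers of luminal epithelium, some cells of which express Kit, were high in the same libraries as Kit. Within day 3 they were higher in replicate 1 for every marker except Elf5, which had 0 CPM in both libraries, and for Muc1 the values were close (2.26 and 1.39 CPM in replicates 1 and 2). All 15 markers were tested, 12 rose at day 7 in edgeR and the other 3 did not pass, and 0 fell. DESeq2 called 14 of the 15 higher and 0 lower, against 8.6% of its genes higher and 2.97% lower. Among all genes tested, 5.9% rose and 1.77% fell. Krt8, a keratin of simple epithelia, was at 0.488, 0.674 and 0.433 CPM in uninjured libraries, 329 and 0.641 CPM at day 3, and 241, 298 and 97.3 CPM at day 7. Sox10, used as a melanocyte marker, is also a factor of Schwann cells and not particular to either. It was at 0.488, 0.429 and 0.722 CPM in uninjured libraries. Its values were 11.9 and 0.535 CPM at day 3, and 12.8, 14.5 and 5.27 CPM at day 7. Both genes thus split the day 3 libraries as Kit did. Other melanocyte markers, of cells that also carry Kit, leaned both ways within day 3. Dct, by far the most abundant, leaned as Kit did but by less, with 736 CPM for replicate 1 against 520 for replicate 2. It was already at 296, 478 and 212 CPM in uninjured libraries, where Tyrp1, Pmel and Mlana were at 4.47 CPM or less. Dct thus did not follow these markers, and whether its RNA came from melanocytes was not tested. Tyrp1 (3 and 0 counts) and Tyr were also higher in day 3 replicate 1. Pmel, Mlana and Oca2 were higher in replicate 2, each with 10 counts or fewer there, and Slc45a2 had 0 counts in both. Pmel measured 0.610, 4.47 and 0 CPM in uninjured libraries, 0.206 and 1.07 CPM on day 3, and 55.0, 4.01 and 1.68 CPM on day 7, and Tyr had 2 and 0 counts on day 3. The part of epithelial or melanocyte RNA in the rise of Kit was not tested. In RNA pulled down from a whole tissue, fewer cells of a type, less RNA per cell and less carried-over RNA cannot be told apart.

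**Figure D3:**
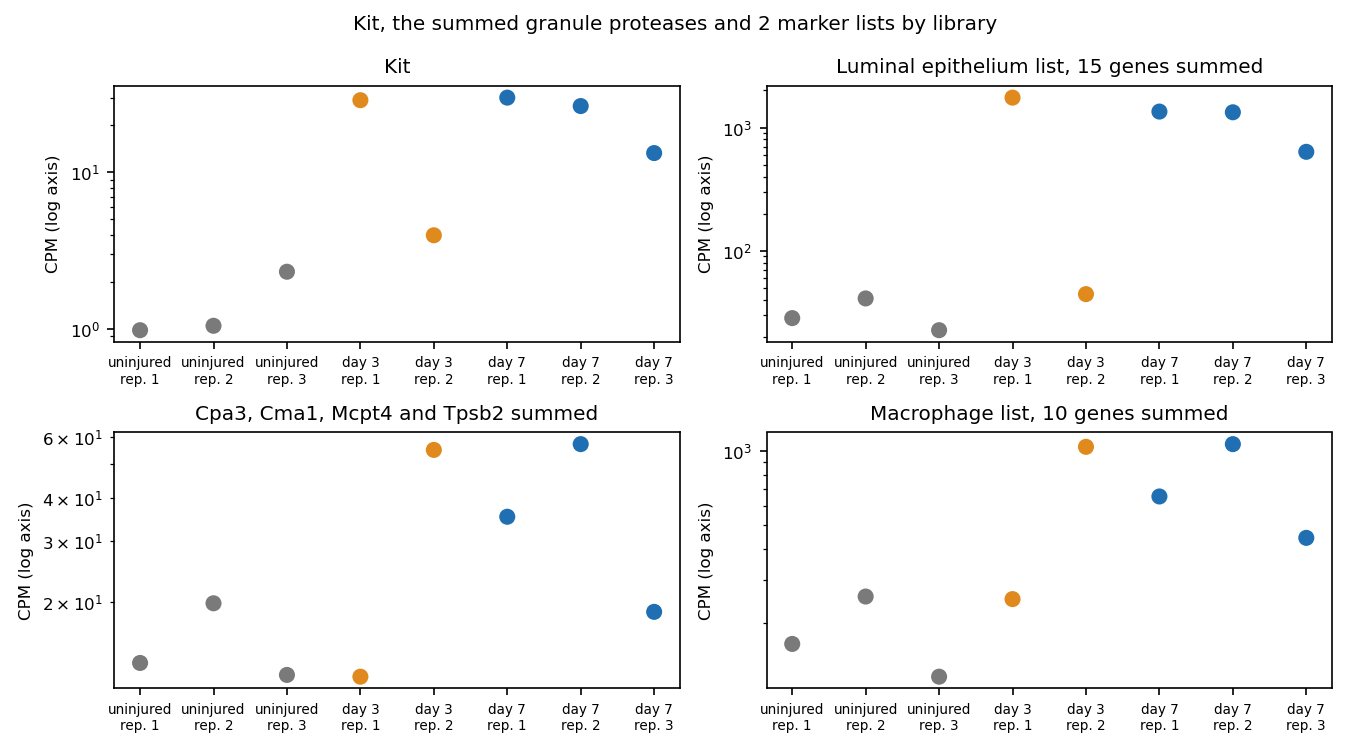
Kit, the summed level of Cpa3, Cma1, Mcpt4 and Tpsb2, and the summed levels of the luminal epithelium and macrophage lists in each library, in CPM on log axes. In day 3 replicate 1, Kit (29.0 CPM) and the luminal list (1749 CPM) are high and the proteases (12.1 CPM) low, whereas in day 3 replicate 2 the proteases (55.0 CPM) and the macrophage list (1041 CPM) are high.

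The genes with the most similar profile differed between members. Over the 8 libraries and among 10504 candidate genes, the highest Pearson correlations of log2 CPM with Kit were those of Wfdc2 (0.993), Mlph (0.991), Tead2 (0.990), Tmem51 (0.987) and Coro2a (0.986). Wfdc2 is on the luminal list and had 80.2 CPM in day 3 replicate 1 but 1.60 CPM in replicate 2. For Cma1 they were Ctsc (0.975), which encodes the peptidase that activates chymases, Nckap1l (0.966), Fcgr2b (0.959), Rab3il1 (0.951) and Csf1r (0.949), the CSF1 receptor of macrophages. For Cpa3 they were Abca9 (0.962), Cd37 (0.953), Cd74 (0.938), Csf1r (0.932) and Fermt3 (0.930). For Mcpt4 they were Cerk (0.990), Ckap5 (0.980), Tepsin (0.976), Plac9a (0.976) and the leukocyte gene Ptprc (0.969), for Tpsb2 Pfkfb4 (0.972), Scara3 (0.962), Cerk (0.958), St6gal1 (0.958) and Plvap (0.955), and for Hdc Rasip1 (0.964), Tie1 (0.964), B3gnt8 (0.963), Tcirg1 (0.961) and Rgs10 (0.959). Among the members, correlations were 0.654 to 0.925 between proteases and 0.106 to 0.414 between Kit and a protease. Hdc correlated at 0.809 with Kit and at 0.610 to 0.799 with the proteases, so Kit was not apart from every other member. These describe 8 libraries that share 3 groups and differ in depth, and carry no test.

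The makeup of the protease counts was alike in the day 3 libraries, whose sums were far apart. In day 3 replicates 1 and 2, whose protease sums were 59 and 514 counts, Tpsb2 made up 30.5% (19.2% to 43.9%) and 29.4% (25.5% to 33.5%) and Cma1 30.5% and 29.0%. In uninjured libraries Tpsb2 made up 31.8% to 35.8%. In day 7 replicates 1 and 2 its share was 41.8% (36.3% to 47.5%) and 41.2% (37.3% to 45.2%), and in replicate 3 it was 17.3% (11.7% to 24.2%), with Cpa3 at 35.3% there against 13.8% and 14.1% in replicates 1 and 2. The interval of replicate 3 lay below those of the other day 7 libraries. The intervals cover counting error only, and the spread between libraries is not in them.

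**Figure D4:**
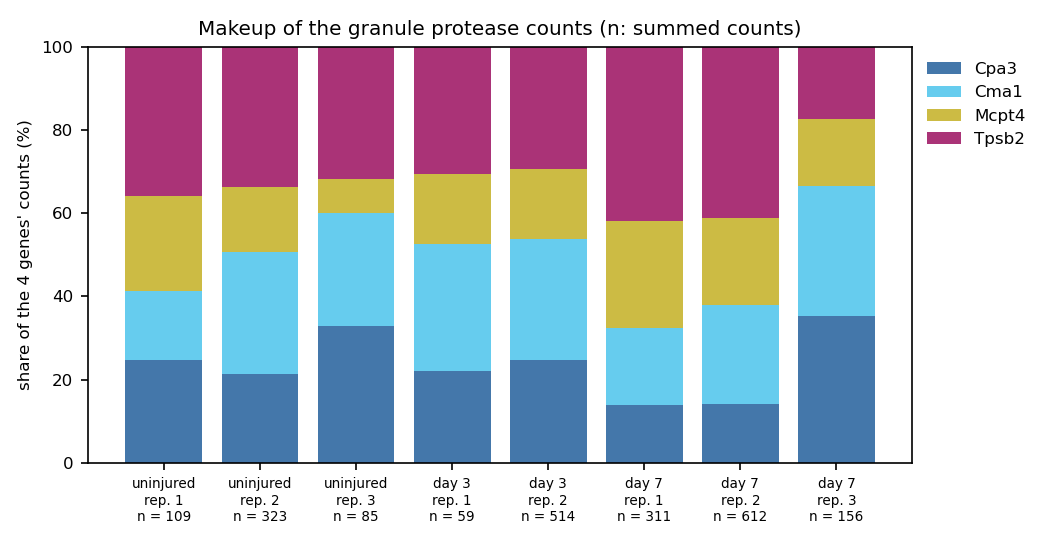
Share of each of 4 granule proteases in their summed counts per library, in percent, with the summed counts under each bar. Tpsb2 holds 29.4% to 35.8% in uninjured and day 3 libraries, 41.8% and 41.2% in day 7 replicates 1 and 2, and 17.3% in day 7 replicate 3.

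Per kilobase of gene, the 4 proteases had the highest group means of the 8 genes, but not in each library. In day 3 replicate 1 Kit, at 3.25 CPM per kilobase, was above Tpsb2 (2.32), Mcpt4 (1.86) and Cpa3 (1.76) and below Cma1 (3.40), whereas in day 3 replicate 2 it was at 0.444 and the proteases at 8.39 to 14.6. In day 7 replicate 1 Kit (3.38) was above Cpa3 (3.21). In day 7 libraries Tpsb2 was at 8.67 ± 6.38, Cma1 at 7.97 ± 3.94, Mcpt4 at 7.22 ± 4.12 and Cpa3 at 4.28 ± 1.04 CPM per kilobase (SD, n = 3), followed by Kit at 2.62 ± 1.00, Hdc at 0.850 ± 0.530, Fcer1a at 0.614 ± 0.525 and Ms4a2 at 0.103 ± 0.0238. In uninjured libraries Cma1 was at 3.47 ± 1.70, Tpsb2 at 3.21 ± 0.892, Cpa3 at 2.54 ± 0.326 and Mcpt4 at 2.14 ± 1.07 CPM per kilobase (SD, n = 3), and Kit, Fcer1a, Hdc and Ms4a2 at 0.0902 to 0.162. Neighbours among the 4 proteases did not differ beyond their spread in either group, nor did Kit, Fcer1a, Hdc and Ms4a2 in uninjured skin. The deposited lengths of Kit and Hdc (8911 and 6389 bases) exceed those of their longest coding transcripts (5241 and 2392 bases), which lowers their values on this scale.

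Other genes of mast cells changed in part at day 7. Of 25 further mast cell genes, 13 could be tested, 3 rose, 0 fell and 10 did not pass. Tpsab1, Mrgprb1, Gata1 and Mcpt9 were among those with too few counts to test. The filter needs its count level in any 2 libraries. Il1rl1 and Enpp3, low in uninjured skin, could thus be tested only because they were higher after wounding. Of all genes tested, 5.9% rose and 1.77% fell. The list's median log2 fold change was 1.24 against 0.04 over all genes tested. Il1rl1, the IL-33 receptor ST2, was at 4.98, 4.01 and 3.47 CPM at day 7 and 0.854, 0.674 and 1.16 CPM in uninjured libraries (log2 2.23 ± 0.51, edgeR adjusted p = 0.0274). Enpp3, a surface ectoenzyme of basophils and mast cells that epithelia also make, was at 4.42, 7.09 and 2.52 CPM at day 7 and 0.732, 0.796 and 0 CPM in uninjured libraries (log2 3.06 ± 0.74, edgeR adjusted p = 0.0334). Cnrip1 rose 2.65-fold (edgeR adjusted p = 0.0483). The transcription factors Gata2 (6.23, 3.27 and 0.838 CPM at day 7 and 0.122, 0.674 and 1.16 CPM in uninjured libraries, edgeR adjusted p = 0.0893) and Mitf (10.6 ± 4.23 CPM at day 7 and 5.39 ± 0.552 CPM in uninjured libraries, edgeR adjusted p = 0.168) did not pass in edgeR. DESeq2 called Gata2 higher (DESeq2 adjusted p = 0.0301) but not Mitf. It called 4 of the 25 genes higher and 0 lower, against 8.6% of its genes higher and 2.97% lower. The itch receptor Mrgprb2, close to restricted to connective tissue mast cells, averaged 1.55 ± 0.896 CPM at day 7 and 0.685 ± 0.683 CPM in uninjured libraries (SD, n = 3 each) without passing the test (edgeR adjusted p = 0.341).

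Some genes of signalling below FcεRI and KIT rose at day 7. Of 18 genes, all tested, 6 rose, 0 fell and 12 did not pass, with a median log2 fold change of 1.28. The shares over all genes tested were 5.9% higher and 1.77% lower. The SLAM family receptor Cd84 rose 5.76-fold (13.4 ± 7.18 CPM at day 7 and 2.31 ± 0.142 CPM in uninjured libraries, edgeR adjusted p = 0.0135), the kinase Fyn 2.81-fold, the phosphatase Ptpn6 2.62-fold and the adaptor Lat2 7.22-fold. Fcer1g, the gamma chain that FcεRI shares with other Fc receptors and that macrophages make, rose 3.54-fold (57.7 ± 20.7 CPM at day 7 and 16.1 ± 8.42 CPM in uninjured libraries, edgeR adjusted p = 0.0440) and was named after its values were seen. Most of these genes are expressed in other leukocytes, and 2 of 10 macrophage markers rose in the same comparison with a median log2 fold change of 1.78. DESeq2 called 7 of the 10 macrophage markers and 7 of the 18 signalling genes higher, against 8.6% of its genes. The part of macrophage RNA in these rises was not tested.

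Among ligands that act on mast cells, 3 of 9 tested rose and 0 fell, with a median log2 fold change of 1.21. By comparison, 5.9% of all genes tested rose and 1.77% fell. The ligands that rose included the chemokine Ccl2 (7.89-fold, edgeR adjusted p = 0.0198) and Il33, the ligand of ST2 (3.56-fold, edgeR adjusted p = 0.0316). Kitl, the ligand of KIT, was at 20.7 ± 11.9 CPM at day 7 and 11.9 ± 5.17 CPM in uninjured libraries and did not pass (edgeR adjusted p = 0.291). Of 8 tested genes of prostaglandin D2 and leukotriene synthesis, 1 rose and 0 fell, against 5.9% and 1.77% of all genes tested. The list's median log2 fold change was 1.16. The gene that rose was Ptgds, the lipocalin-type prostaglandin D synthase. It was at 10.5, 9.42 and 15.3 CPM at day 7 and 0.610, 0.857 and 0.578 CPM in uninjured libraries (log2 4.04 ± 0.45, edgeR adjusted p = 0.00145). Hpgds, the haematopoietic synthase that mast cells use, had a log2 fold change of 1.89 ± 0.54 and did not pass in edgeR (edgeR adjusted p = 0.0552). It was called higher by DESeq2 (DESeq2 adjusted p = 0.0107). DESeq2 called 2 of the list's 9 genes higher and 0 lower, against 8.6% of its genes higher and 2.97% lower.

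No gene of granule packaging or histamine handling passed in edgeR at day 7 against uninjured. Of 14 tested genes of serglycin, heparin synthesis, exocytosis and protease activation, 0 passed in edgeR and 0 in DESeq2. Of all genes tested, edgeR called 7.67%, and DESeq2 called 8.6% of its genes higher and 2.97% lower. At an unadjusted p under 0.05 in edgeR, 1 was higher and 2 lower, against 17.2% of all genes higher and 26.7% in either direction. The list's median log2 fold change was -0.06. Srgn, which encodes serglycin, was at 62.3 ± 26.4 CPM at day 7 and 105.7 ± 114 CPM in uninjured libraries (edgeR adjusted p = 0.475). Of 3 tested genes of histamine handling, 0 passed in edgeR, with 0 higher and 1 lower at an unadjusted p under 0.05, and none of the 3 was called by DESeq2. DESeq2 called 1 of the list's 7 genes higher, Aoc1, a diamine oxidase that breaks down histamine, which edgeR's filter had removed and which was named after its values were seen. It was at 0.566, 2.99 and 0.719 CPM at day 7 and had 0 counts in all 3 uninjured libraries. Hnmt, the histamine methyltransferase, was at 39.5 ± 11.5 CPM at day 7 and 54.1 ± 1.79 CPM in uninjured libraries (edgeR adjusted p = 0.243).

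**Figure D5:**
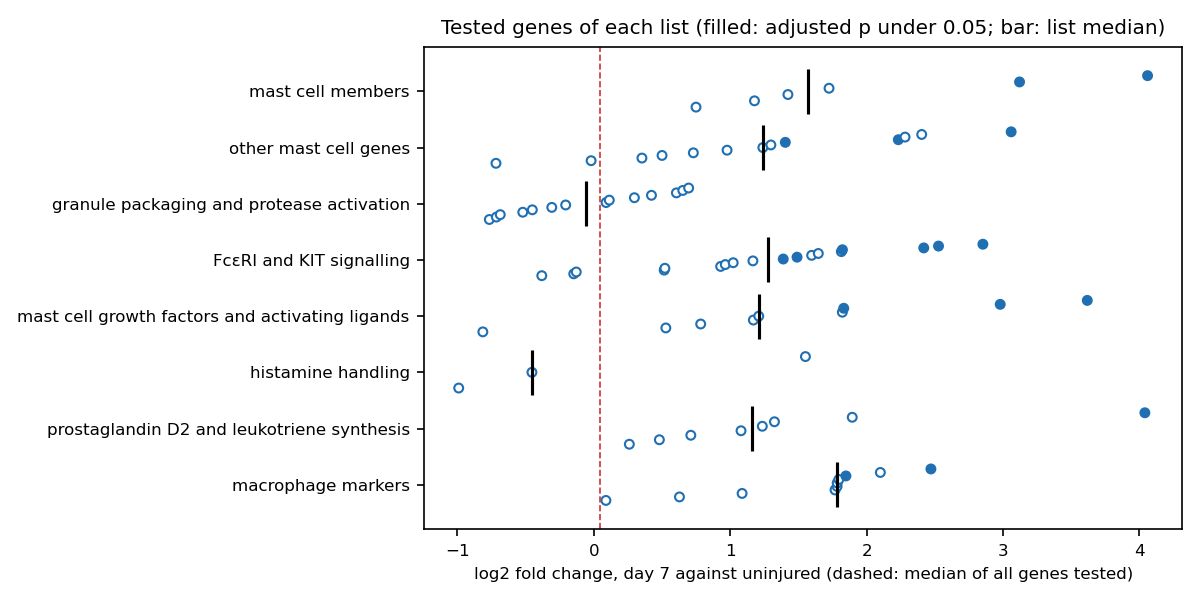
Log2 fold changes at day 7 against uninjured of the tested genes of 8 lists, the luminal list not among them, with the list's median as a bar and the median of all genes tested (0.04) as a dashed line. Filled points passed at an adjusted p under 0.05, as did 7.67% of all genes tested. Of the lists drawn the signalling list has the most of them, 6 of 18.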

How the data were processed

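Ribosome-associated RNA of mouse skin was analysed in 8 libraries, as raw read counts per gene that the authors deposited without normalization. Per the file headers, featureCounts 2.0.8 made the counts. The submitters' processing notes also list STAR 2.7.10b, DESeq2 and mm10. Strandedness and the handling of multimapping reads: not given in the sources used here. Of 53700 identifiers, 52093 had a symbol in the GRCm38 annotation (GENCODE M21), and 1491 of these had the same start there, so the build of the deposited coordinates is not settled.

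TMM normalisation and testing used edgeR 4.0.16 (R 4.3.3). Genes passing filterByExpr at a minimum count of 10 were kept (18656). This level is needed in any 2 libraries, so genes low in uninjured skin could pass only if they were higher after wounding. The fit took all 8 libraries with 3 group means, leaving 5 residual degrees of freedom. The quasi-likelihood F test (two-sided) served for each contrast, with Benjamini-Hochberg adjustment over all genes tested and a threshold of 0.05. Each standard error is the log2 fold change over the root of F. Lists were described by counts and medians, without a set test. Likeness used log2(CPM + 0.5) and genes with a mean of at least 5 CPM, of which the nearest 5 are named. All 8 members are named, and of each other list at most the 4 called genes with the smallest adjusted p, plus markers of other cell types whose values move with a member. Gata2, Mitf, Mrgprb2, Kitl, Hpgds, Srgn, Hnmt and Fcer1g fall outside that rule and were chosen after their values were seen. Shares have exact binomial intervals. The procedure was tested on simulated data. The members and lists were chosen with earlier results of these data known. Alternatives were other scalings, other filters, DESeq2 1.42.0, fewer libraries and a replicate block. Input or unbound RNA was not analysed here. 1 called gene of the ligand list is not reported here.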

Additional observations from a re-analysis of the deposited data

How the results depend on the processing

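Depth limited the low genes most: 3 counts are 0.184 CPM in the deepest and 0.617 CPM in the shallowest library. With a library left out of day 3, the lone library was assumed to vary like the other groups. At day 7 against uninjured, the number of the 8 genes called was 2, and 4 without a filter and 0 to 4 with a library left out. The call of Hdc was lost in 4 of 8 and that of Kit in 1 of 8 such fits. All genes called were 1431, against 2518 in DESeq2, 3156 without a filter and 314 to 4055 with a library left out (4055 without day 7 replicate 3, 314 without uninjured replicate 1). At day 3 against uninjured, 0 of the 8 genes were called, against 2 in DESeq2 and 2 without a filter and 0 to 1 with a library left out. All genes called were 2, against 432 in DESeq2, 926 without a filter, 0 at a minimum count of 30, 0 with only the 2 groups compared and 0 to 150 with a library left out. At day 7 against day 3, none of the 8 was called under any alternative, and all genes called were 16, against 26 with upper-quartile scaling, 233 in DESeq2, 572 without a filter and 5 to 34 with a library left out. With the replicate block, all genes called were 2131 at day 7 against uninjured, 7 at day 3 against uninjured and 126 at day 7 against day 3. In that fit Mcpt4 passed at day 7 against uninjured (edgeR adjusted p = 0.0492), and Cma1 at day 7 against day 3 changed sign to 0.15. Same-numbered libraries of different groups had deviations from their group means correlated over 0.1 in 2 of 7 pairs (-0.089 to 0.22). Such deviations cancel within a group, so these values cannot exclude pairing. Nothing in the labels says that replicate numbers pair libraries, and the main fit used no pairing.

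Of 270 values of single genes under the alternatives, 241 kept direction and side of the threshold, 5 no longer passed, 10 newly passed and 14 changed sign. None of those 14 had passed. With a library left out, log2 fold changes at day 3 against uninjured ranged from -0.073 to 2.04 for Cma1, -0.55 to 1.81 for Cpa3, -0.25 to 1.93 for Mcpt4 and -0.50 to 1.64 for Tpsb2. At day 7 against day 3 they ranged from -0.88 to 1.24 for Cma1, -1.07 to 1.28 for Cpa3, -0.30 to 0.73 for Hdc, -0.31 to 2.54 for Kit, -0.23 to 1.96 for Mcpt4 and -0.23 to 1.91 for Tpsb2.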
